A study of Mus musculus with 14 samples.

Results

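The 37 genes described here encode the contractile sarcomere of muscle, the Z-disc that anchors it, and proteins that muscle makes under mechanical or metabolic stress. They are a list of symbols, each found once in the deposited count table of 49315 genes. After the filter on low counts, 36 of them were among the 15947 genes tested, and Tnni1 was not. RNA was sequenced from hearts of male WT C57BL/6 mice on a standard chow diet, with 4 libraries from mice 12 weeks old and 4 from mice 68 weeks old. No allele or treatment separated the groups, so they differ by age as labelled. Each library was made from total RNA of pulverised heart tissue, so all cell types of the organ contribute. Nothing in the labels says that replicates are separate mice, so the p-values measure only the spread between these libraries, which may be technical. The same ages were profiled for H3K27me3, a histone mark linked with gene silencing, by CUT&RUN, in which an antibody directs the cutting and release of DNA from chromatin. Those data come as 1 list of regions for each age.

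The sarcomere is the contractile unit of striated muscle. Myosin thick filaments, held together at the M-band, pull on actin thin filaments, whose access to myosin is set by troponin and tropomyosin in response to calcium. Thin filaments of neighbouring sarcomeres are cross-linked at the Z-disc, titin runs from the Z-disc to the M-band, and several Z-disc proteins also travel to the nucleus or respond to stretch. In the adult mouse heart, a set of fetal or stress-inducible muscle genes is known to be expressed more strongly under pressure load or injury.

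Each 12-week library held 23599296 to 31662601 counts and each 68-week library 28842059 to 34599121, with 7.41% to 12.1% of counts on mitochondrial genes. The summed level of the cardiomyocyte markers (Myh6, Ryr2, Atp2a2, Pln and others) was 56294 to 60219 CPM (counts scaled to a common depth) at 12 weeks. At 68 weeks it was 56303 to 62268, so the labelled tissue expressed its defining genes in every library. These markers include the members Tnnt2 and Actn2, and also Slc8a1, which was called higher (log2 fold change 0.51, adjusted p = 0.00479 in edgeR). Summed airway markers (Bpifa1, Scgb1a1 and others, 20 genes) were 1708, 971, 597 and 67.1 CPM in replicates 1 to 4 at 12 weeks and 31.0, 19.6, 1097 and 27.7 CPM at 68 weeks. None of those 20 genes passed the test between the ages. Summed white adipocyte markers (7 genes, 4 of them called lower) reached 459 CPM at 12 weeks. At 68 weeks they were 40.7 to 142 CPM, below every younger library, although Lep had a log2 fold change of 0.85 and was not called. Fibroblast markers (8 genes, with Col1a1 called lower) summed to 2411 to 2578 CPM at 12 weeks and 1818 to 2189 CPM at 68 weeks. Brown adipocyte markers (6 genes, with Elovl3 and Dio2 called lower) summed to 804 to 1182 CPM and 670 to 748 CPM. The ages again did not overlap in either sum. Most of the brown adipocyte sum was Cox7a1, at 446 to 616 CPM over the 8 libraries, and Ppargc1a, at 126 to 159 CPM. Both of these genes overlapped between the ages and neither was called. In Ucp1, Cidea, Elovl3 and Dio2 every 68-week library lay below every 12-week library. Summed atrial markers were 1634 to 2855 CPM at 12 weeks and 1144 to 3953 CPM at 68 weeks. The 12 skeletal muscle markers summed to 1490 to 1849 CPM at 12 weeks and 1637 to 1930 CPM at 68 weeks, and most of this was Ckm, the muscle creatine kinase that the heart also makes, at 1447 to 1888 CPM over the 8 libraries. Myl1 was at 37.4 to 57.8 CPM, Atp2a1 at 1.44 to 5.81 CPM and Tnni2 at 0.744 to 1.91 CPM. The fast myosins Myh1, Myh2 and Myh4 and the fast troponin Tnnc2 were at most 0.180 CPM, and none of the list's tested genes was called by edgeR.

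**Figure D1:**
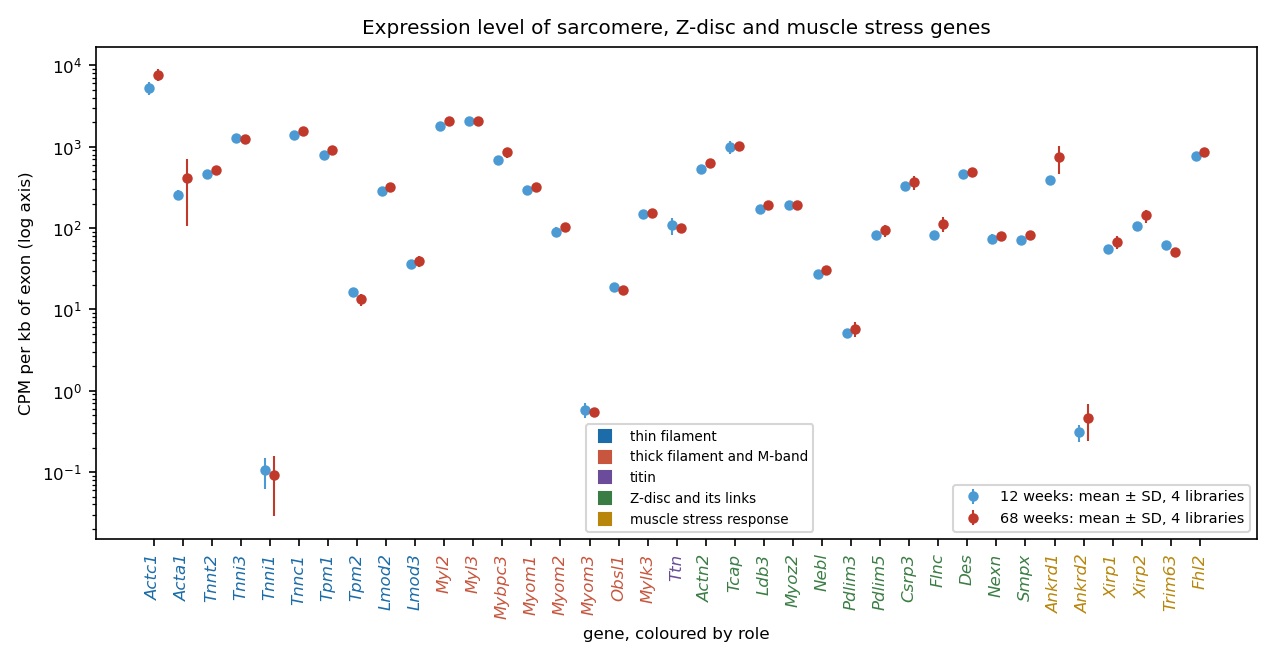
Mean level of each gene per kb of exon, in CPM on a log axis, at 12 and 68 weeks, with SD over 4 libraries as bars and genes coloured by role. Actc1 stands highest at 5270 CPM per kb at 12 weeks and Tnni1 lowest at 0.106, and the means of the ages lie close together for most genes.

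The levels of these genes were compared per kb of exon. At 12 weeks cardiac actin, Actc1, was the highest at 5270 ± 916 CPM per kb (SD, n = 4). The light chains Myl3, at 2067 ± 188 CPM per kb, and Myl2, at 1816 ± 143, came next, with a gap smaller than the sum of their SDs. Tnnc1 followed at 1407 ± 171 CPM per kb and Tnni3 at 1283 ± 89.7, and this pair differed by less than the SD of Tnnc1. The lowest were the M-band gene Myom3 at 0.584 ± 0.118 CPM per kb, the ankyrin repeat gene Ankrd2 at 0.308 ± 0.0761 and the slow skeletal troponin gene Tnni1 at 0.106 ± 0.0442. The order at the top at 68 weeks was again Actc1, at 7697 ± 1243 CPM per kb, before Myl2, at 2091 ± 196, and Myl3, at 2066 ± 176, a pair that did not differ beyond their spread.

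Between the ages, 1 of the 36 genes tested passed the edgeR test. Trim63, a ubiquitin ligase that marks muscle proteins for degradation, fell, and no member was called higher. The background over all genes tested was 1.61% called higher and 1.22% called lower (edgeR quasi-likelihood test, Benjamini-Hochberg adjusted p under 0.05). At an unadjusted p under 0.05, 13 members were higher and 2 lower, beside 9.26% higher and 9.77% lower of all genes tested. The log2 fold change of 68 over 12 weeks was above 0 in 29 of 36 members, or 80.6%, beside 47.9% of all genes tested, with a median of 0.15 in the members and -0.0082 over all genes. In 8 members every 68-week library lay above every 12-week library, beside a background of 6.26% of genes, and in Trim63 every one lay below, beside 5.86%. Fibroblast, white adipocyte and brown adipocyte marker sums were lower in every 68-week library, and their part in these values was not tested. The DESeq2 test called 8 members higher, beside 3.46% of the genes it gave an adjusted p, and 1 lower, beside 2.67%: Actc1, Tpm1, Mybpc3, Actn2, Flnc, Ankrd1, Xirp1 and Xirp2 were higher and Trim63 lower. In bulk tissue, fewer cells of a type and less RNA per cell cannot be told apart, which holds for every difference below.

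**Figure D2:**
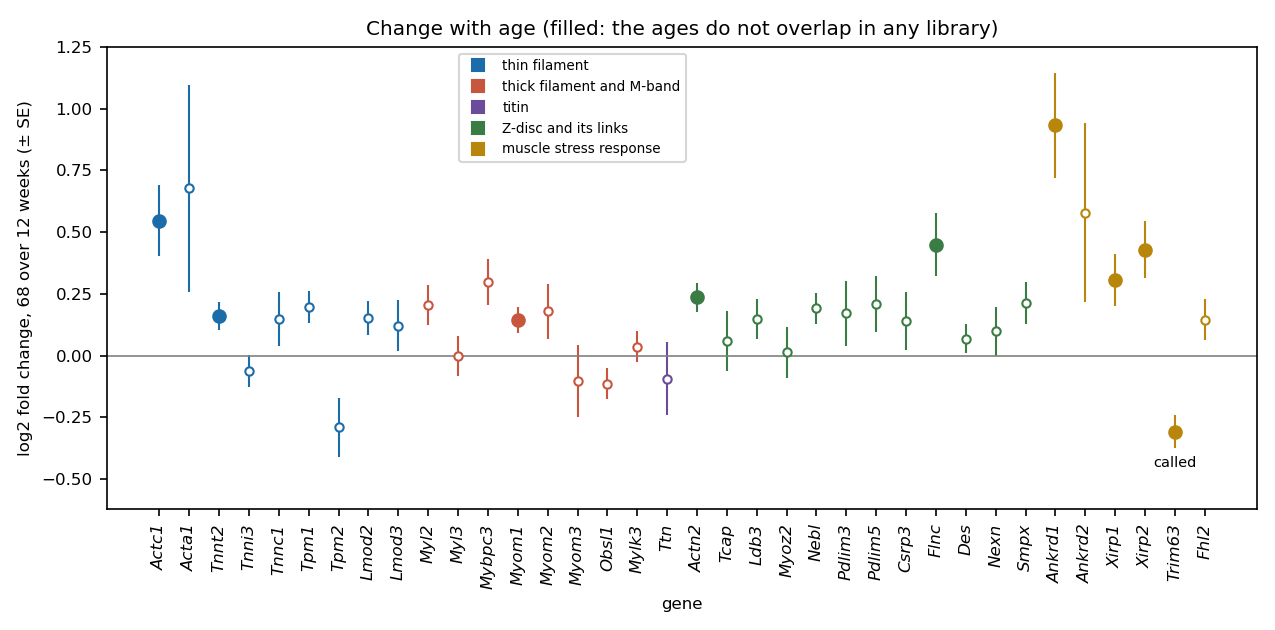
Log2 fold change of 68 over 12 weeks for the 36 members tested, with the standard error as bars and genes ordered and coloured by role. Filled points mark the 9 genes whose libraries do not overlap between the ages, of which Trim63, at -0.31, is the one called, and all 12 Z-disc genes lie above 0.

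Among the stress-response genes, Trim63 and Ankrd1 stood at opposite ends of the range of fold changes. Trim63 (chr4:134315120-134329629, mm10) was at 171, 196, 174 and 164 CPM in the 12-week libraries and at 152, 142, 144 and 131 CPM in the 68-week libraries. All 68-week libraries lay below all 12-week libraries, and the lowest was 68-week replicate 4. Its log2 fold change was -0.31 ± 0.068 (SE), with an adjusted p of 0.0468 in edgeR. Over the alternatives the adjusted p ran from 0.00182 to 0.707. It ranged from 0.0506 to 0.117 when any 1 of the 8 libraries was left out, so the call was lost each time. The fold change then ran from -0.34 to -0.25. Over all genes tested the share called lower also fell, from 1.22% to between 0.321% and 0.957%. The adjusted p in edgeR was 0.247 with the summed airway markers as a covariate. There the log2 fold change was -0.27, and 0.119% of all genes tested were called lower. Within the 4 libraries with the most airway markers, where 68-week replicate 3 was alone for its age, the log2 fold change was -0.32. Within the 4 with the fewest, where 12-week replicate 4 was alone for its age, it was -0.21.

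Ankrd1, or CARP, is a titin-associated ankyrin repeat protein that is strongly induced by stretch and load and acts also in the nucleus. The gene (chr19:36111965-36119844, mm10) was at 736, 687, 607 and 733 CPM at 12 weeks and at 1043, 947, 1251 and 2036 CPM at 68 weeks. The 12-week libraries were close to each other, every 68-week library lay above them, and 68-week replicate 4 was far above the rest. Its log2 fold change of 0.93 ± 0.21 was the largest of the members and missed the threshold at an adjusted p of 0.0512 in edgeR. Without 68-week replicate 4 the log2 fold change was 0.65 with an adjusted p of 0.0308, and without 68-week replicate 2 it was 1.07 with 0.0468. Over the other alternatives the adjusted p lay between 0.0113 and 0.603. Within the 4 libraries with the most airway markers, with 68-week replicate 3 alone for its age, the log2 fold change was 0.89. Within the 4 with the fewest, with 12-week replicate 4 alone for its age, it was 0.87.

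Xirp2 and Xirp1 encode Xin repeat proteins, which bind actin at intercalated discs and at sites of myofibril strain. Xirp2 was at 1218, 1204, 1387 and 1268 CPM at 12 weeks and at 1439, 1599, 1642 and 2159 CPM at 68 weeks. The ages did not overlap, and replicate 4 was again the highest of the 68-week libraries. Its log2 fold change was 0.43 ± 0.11, with an adjusted p of 0.0809 in edgeR. Xirp1 was at 315, 319, 323 and 319 CPM at 12 weeks, with the lowest coefficient of variation of the members tested at that age (1.04%), and at 340, 354, 389 and 495 CPM at 68 weeks. Here too every 68-week library was higher, and the log2 fold change was 0.31 ± 0.11 with an adjusted p of 0.157 in edgeR, and 0.18 without 68-week replicate 4. The remaining stress genes overlapped between the ages. Ankrd2, a stretch-responsive relative of Ankrd1 found mainly in skeletal muscle, was barely detected, at 0.215 to 0.397 CPM and 0.324 to 0.863 CPM, with a log2 fold change of 0.58 ± 0.36, or 0.20 without 68-week replicate 4. Fhl2, a LIM-domain adaptor of the cardiac sarcomere and nucleus, had a mean of 1465 ± 141 CPM (SD, n = 4) at 12 weeks and 1622 ± 132 CPM at 68 weeks.

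**Figure D3:**
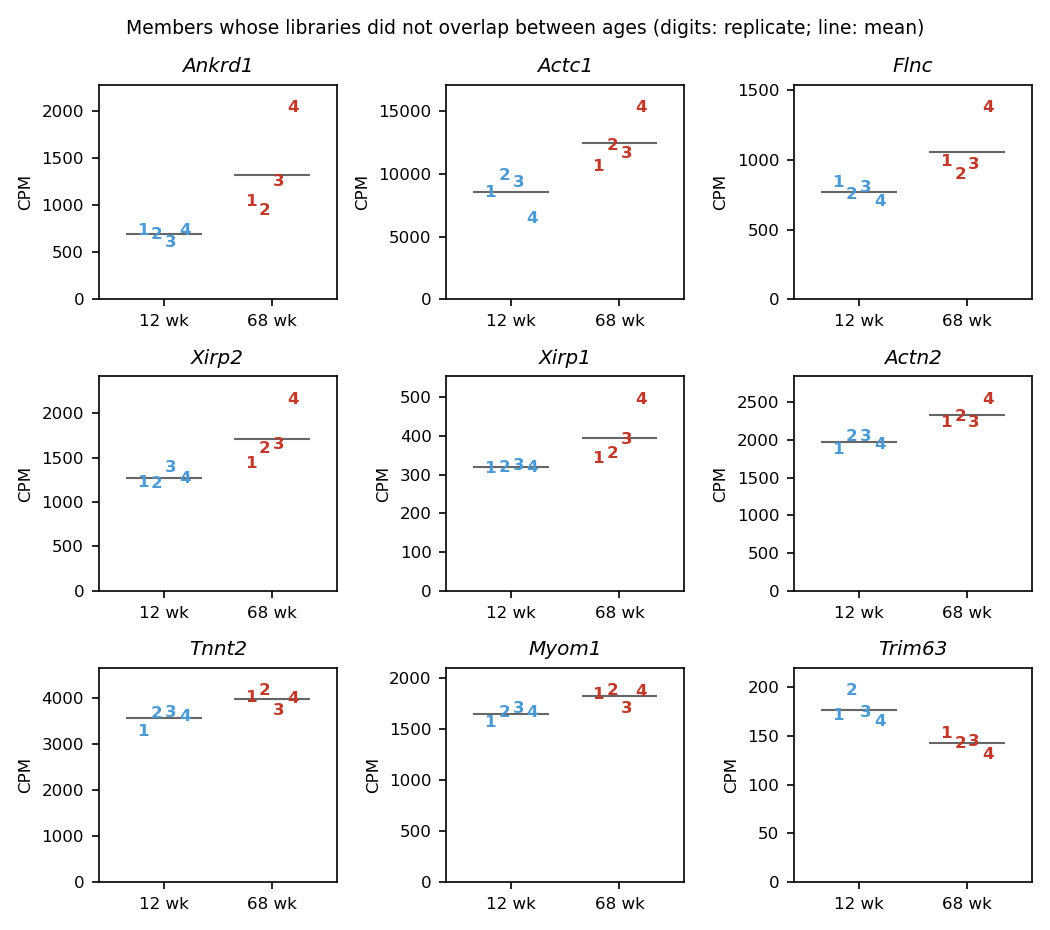
CPM of the 9 members whose libraries did not overlap between the ages, with each digit a replicate number and each line the mean of 4 libraries, on axes that start at 0. In Ankrd1, Actc1, Flnc, Xirp2, Xirp1 and Actn2 the digit 4 at 68 weeks stands above the other libraries, and in Trim63 it stands below them.

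The promoters of 4 genes whose levels separated the ages are shown, and each holds a motif that is known to be bound by cardiac or stress-responsive factors. Tnnt2, Myom1 and Flnc also separated the ages and hold a motif searched, and their promoters are not shown. Each promoter shown runs from 250 bases before to 50 after the RefSeq start (GRCm38.p6), 5′ to 3′ on the strand of the gene. Capitals mark the matches of the motifs searched: CATTCC (the MCAT element, bound by TEAD factors) and GATAA (the core of a GATA site) in Ankrd1 and CATTCC in Trim63, both in the reverse orientation as printed, the CArG box (bound by serum response factor) in Actc1, and a MEF2 site in Xirp2. They lie at chr19:36119795-36120094 on the minus strand for Ankrd1, chr2:114052826-114053125 on the minus strand for Actc1, chr2:67445752-67446051 on the plus strand for Xirp2, and chr4:134314870-134315169 on the plus strand for Trim63.
Ankrd1: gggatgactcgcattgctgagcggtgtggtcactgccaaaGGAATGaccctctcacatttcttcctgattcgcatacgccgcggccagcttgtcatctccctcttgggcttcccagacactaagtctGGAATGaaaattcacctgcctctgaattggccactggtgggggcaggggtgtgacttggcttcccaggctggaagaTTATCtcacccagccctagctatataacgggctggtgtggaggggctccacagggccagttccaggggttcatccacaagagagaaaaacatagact
Actc1: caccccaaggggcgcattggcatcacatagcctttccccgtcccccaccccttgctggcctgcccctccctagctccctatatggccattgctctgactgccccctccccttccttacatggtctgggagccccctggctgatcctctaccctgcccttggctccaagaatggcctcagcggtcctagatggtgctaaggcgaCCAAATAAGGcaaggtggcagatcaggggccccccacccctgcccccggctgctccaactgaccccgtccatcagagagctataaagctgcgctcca
Xirp2: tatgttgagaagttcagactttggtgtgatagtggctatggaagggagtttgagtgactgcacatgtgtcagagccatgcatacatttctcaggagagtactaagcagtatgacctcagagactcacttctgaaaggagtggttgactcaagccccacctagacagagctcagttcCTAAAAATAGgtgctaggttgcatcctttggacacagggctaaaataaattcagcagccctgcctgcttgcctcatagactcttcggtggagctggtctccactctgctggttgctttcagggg
Trim63: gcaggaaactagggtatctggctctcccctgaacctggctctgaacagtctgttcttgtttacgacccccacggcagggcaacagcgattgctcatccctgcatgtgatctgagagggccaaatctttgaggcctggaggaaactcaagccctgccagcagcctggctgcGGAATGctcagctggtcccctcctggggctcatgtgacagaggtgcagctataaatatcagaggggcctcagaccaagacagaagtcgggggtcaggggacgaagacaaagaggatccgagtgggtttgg

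The RefSeq table held a promoter for 32 of the 37 genes. Both strands were searched in each, and a CArG box and a MEF2 site can share bases. A CArG box was found in 7 of the 32 (Actc1, Acta1, Myl3, Myom1, Ldb3, Nebl and Fhl2), or 21.9%, beside 1.81% of the promoters of 27025 genes. A MEF2 site was found in 6 (Mybpc3, Myom3, Ttn, Myoz2, Xirp2 and Fhl2), or 18.8%, beside 3.70% of all. CATTCC was found in 12, or 37.5%, beside 16.6% of all, and GATAA in 14, or 43.8%, beside 28.4%. Ankrd1 holds CATTCC at positions -210 and -123 from the start and GATAA at -47, Actc1 holds its CArG box at -47, Xirp2 its MEF2 site at -74, and Trim63 its CATTCC at -80. A match describes the letters in this window and is no evidence of binding. CATTCC occurred both in Ankrd1 and in Trim63, whose fold changes had opposite signs.

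In the thin filament, 7 of the 9 genes tested had a log2 fold change above 0, with a median of 0.15. None passed the edgeR test, 3 were higher and 1 lower at an unadjusted p under 0.05, and DESeq2 called 2 higher, Actc1 and Tpm1. Actc1, cardiac alpha-actin, was at 8522, 9843, 9286 and 6456 CPM at 12 weeks and at 10626, 12303, 11598 and 15289 CPM at 68 weeks. All 68-week libraries were above the 12-week ones, with replicate 4 lowest of its age at 12 weeks and highest at 68 weeks. The log2 fold change was 0.55 ± 0.14 with an adjusted p of 0.0785 in edgeR. Within the 4 libraries with the most airway markers, with 68-week replicate 3 alone for its age, it was 0.33. Within the 4 with the fewest it was 0.98, and there the only 12-week library was replicate 4, the lowest of all for Actc1. Acta1, the skeletal alpha-actin, which the heart makes in fetal life and under load, was at 360, 354, 472 and 377 CPM at 12 weeks and at 250, 367, 600 and 1285 CPM at 68 weeks. The older libraries lay on both sides of the younger ones, and replicate 4 had more than all others. For Acta1 the log2 fold change was 0.68 ± 0.42 (adjusted p = 0.418 in edgeR), and it was 0.056 without 68-week replicate 4. Actc1 and Acta1 encode near-identical proteins, and the sources used here do not say how any reads matching both genes were counted. The split between them is uncertain to that extent.

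Of the troponins and tropomyosins, none was called by edgeR and Tpm1 was called higher by DESeq2. Tnnt2, which ties the troponin complex to tropomyosin, was at 3287, 3671, 3684 and 3598 CPM at 12 weeks and at 4017, 4168, 3738 and 3990 CPM at 68 weeks. The ages did not overlap, and 12-week replicate 3 and 68-week replicate 3 lay closest. The log2 fold change was 0.16 ± 0.058 (adjusted p = 0.176 in edgeR). Tpm1, the main tropomyosin of the heart, had a mean of 5125 ± 324 CPM (SD, n = 4) at 12 weeks and 5874 ± 356 CPM at 68 weeks, and the groups overlapped. Tnni3, the inhibitory cardiac troponin, had a log2 fold change of -0.063 ± 0.065, and Tnnc1, the calcium-binding subunit, one of 0.15 ± 0.11, or 0.067 without 68-week replicate 4. Tpm2, a tropomyosin of skeletal and smooth muscle, had the second lowest fold change of the members, -0.29 ± 0.12, with 39.4 to 51.3 CPM at 12 weeks and 30.6 to 44.7 CPM at 68 weeks. Summed smooth muscle and pericyte markers were 841 to 1493 CPM at 12 weeks and 972 to 1089 CPM at 68 weeks, and their part in the Tpm2 value was not tested. The leiomodins, which lengthen or nucleate thin filaments, were at 514 to 605 CPM and 595 to 671 CPM for Lmod2, and at 73.9 to 87.3 CPM and 71.0 to 99.0 CPM for Lmod3.

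Shares of paired relatives within a library, computed from counts per kb, do not depend on how libraries are scaled. Of Tpm1 and Tpm2 together, Tpm2 made up 2.19%, 1.98%, 2.08% and 1.82% at 12 weeks and 1.70%, 1.11%, 1.72% and 1.30% at 68 weeks. The ages did not overlap, and the means were 2.02% ± 0.158 and 1.46% ± 0.298 (SD, n = 4). The exact two-sided permutation test gave p = 0.0286, the smallest that 4 libraries against 4 allow, and 0.171 after adjustment over the 6 pairs compared. At that smallest p, 1 separated pair among 6 cannot come under 0.05 after adjustment, so the adjusted value cannot decide the question. The Xirp1 share of Xirp1 and Xirp2 was 34.1% ± 1.246 and 32.1% ± 0.688, and the Ankrd2 share of Ankrd1 and Ankrd2 was 0.0777% ± 0.0140 and 0.0602% ± 0.00602. Both pairs had an exact permutation p of 0.0857 and an adjusted p of 0.171. The Acta1 share of both actins had nearly equal means, 4.70% ± 0.938 and 4.69% ± 2.58, but spread from 2.42% to 8.13% at 68 weeks against 3.65% to 5.80% at 12 weeks (exact permutation p = 1). The Lmod3 share of both leiomodins was 11.3% ± 1.49 and 11.0% ± 1.07, with an exact permutation p of 0.743. Tnni1, the troponin I of slow skeletal and fetal cardiac muscle, made up under 0.0166% of Tnni1 and Tnni3 in every library, with 0.149 to 0.677 CPM over the 8 libraries.

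Of the thick filament and M-band genes, 5 of 8 had a log2 fold change above 0, with a median of 0.091. None passed the edgeR test, 3 were higher and 0 lower at an unadjusted p under 0.05, and DESeq2 called 1 higher, Mybpc3. Mybpc3, the cardiac myosin-binding protein C, had the highest value at 0.30 ± 0.094 (adjusted p = 0.127 in edgeR). It was at 2835, 3028, 2984 and 2672 CPM at 12 weeks and at 2956, 3959, 3354 and 3898 CPM at 68 weeks, and only 68-week replicate 1 lay within the range of the younger libraries. Myom1, the M-band cross-linker myomesin, was at 1566, 1661, 1702 and 1665 CPM and at 1838, 1878, 1703 and 1871 CPM. The ages were separated by less than 1 CPM, between 12-week replicate 3 and 68-week replicate 3, and the log2 fold change was 0.14 ± 0.053 (adjusted p = 0.179). The ventricular light chains Myl2 and Myl3 had log2 fold changes of 0.20 ± 0.081 and -0.00089 ± 0.082. Myom2 was at 0.18 ± 0.11, Mylk3, the cardiac kinase of the regulatory light chain, at 0.037 ± 0.062, Myom3 at -0.10 ± 0.15 and the obscurin-like gene Obsl1 at -0.11 ± 0.061.

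Titin, Ttn, the giant spring of the sarcomere, was at 16933, 9687, 12662 and 11238 CPM at 12 weeks and at 12294, 11248, 11204 and 12611 CPM at 68 weeks. The older libraries all lay inside the range of the younger ones, whose highest library was replicate 1. The log2 fold change was -0.093 ± 0.15, and without 12-week replicate 1 it was 0.082.

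All 12 genes of the Z-disc and its links had a log2 fold change above 0, from 0.013 to 0.45, with a median of 0.16. None passed the edgeR test, 4 were higher and 0 lower at an unadjusted p under 0.05, and DESeq2 called 2 higher, Actn2 and Flnc. Flnc, filamin C, which cross-links actin at the Z-disc and the membrane, was at 836, 750, 799 and 705 CPM at 12 weeks and at 989, 892, 963 and 1375 CPM at 68 weeks. Every older library was higher, and replicate 4 was well above the other three. The log2 fold change was 0.45 ± 0.13 with an adjusted p of 0.0953 in edgeR, and it was 0.30 without 68-week replicate 4. Actn2, the alpha-actinin that cross-links thin filaments, was at 1873, 2046, 2040 and 1946 CPM at 12 weeks and at 2229, 2314, 2226 and 2543 CPM at 68 weeks. The groups were apart and each was tight, and the log2 fold change was 0.24 ± 0.060 with an adjusted p of 0.0702. Over the alternatives to the edgeR test as run, the adjusted p of Flnc lay between 0.00564 and 0.755 and that of Actn2 between 0.00245 and 0.913.

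The other Z-disc genes overlapped between the ages. Smpx, a small muscle protein of the costamere, had a log2 fold change of 0.21 ± 0.084, Pdlim5, a PDZ and LIM adaptor, 0.21 ± 0.11, and Nebl, the nebulin relative of the heart, 0.19 ± 0.064. Pdlim3 was at 0.17 ± 0.13, Ldb3, or Cypher, which binds alpha-actinin, at 0.15 ± 0.081, and Csrp3, the muscle LIM protein, at 0.14 ± 0.12. Nexn, nexilin, was at 0.10 ± 0.099, Des, the intermediate filament desmin, at 0.069 ± 0.059, Tcap, telethonin, at 0.060 ± 0.12 and Myoz2, calsarcin, at 0.013 ± 0.10. Without 68-week replicate 4 the log2 fold change was 0.091 in Pdlim5, 0.0061 in Csrp3 and 0.028 in Des, and in Tcap it was 0.12. Without 12-week replicate 1 it was 0.098 in Ldb3, 0.044 in Nexn and -0.0044 in Tcap. Of these genes, Nebl and Smpx had an unadjusted p under 0.05.

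Single libraries stood out for many members at once. Of the 36 members tested, 18 were highest of all 8 libraries in 68-week replicate 4, beside 16.6% of all genes tested, and 14 were lowest in 12-week replicate 1, beside 18.1%. Replicate 4 exceeded the mean of the other three 68-week libraries 3.17-fold in Acta1, 2.21-fold in Ankrd2, 1.88-fold in Ankrd1, 1.45-fold in Flnc, 1.40-fold in Csrp3, 1.38-fold in Xirp2 and 1.37-fold in Xirp1. It was lower than their mean in Tcap (0.858 of it), Trim63 (0.897), Nebl (0.921), Myom2 (0.921), Mylk3 (0.928) and Tpm2 (0.942). That library had 27.7 CPM of airway markers, 40.7 CPM of white adipocyte markers, the least of the 8, and 2148 CPM of atrial markers, inside the range of the others. The part of these values in the pattern was not tested. Without that library 29 of 37 members tested had a log2 fold change above 0, with a median of 0.12.

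The summed CPM of the members was 65044, 62657, 64155 and 57957 at 12 weeks and 66381, 71421, 66966 and 79381 at 68 weeks. All 68-week sums were above the 12-week sums, though 68-week replicate 1 lay close to 12-week replicate 1, and the genes with the most reads weigh most in the sums. The median deviation of the members from their own mean over the 8 libraries, on the log2 scale, was -0.15, -0.068, -0.037 and -0.10 at 12 weeks and 0.00037, 0.11, 0.0038 and 0.17 at 68 weeks. Replicates 1 and 3 at 68 weeks lay nearest to the younger libraries. The median coefficient of variation of the members was 7.83% at 12 weeks and 8.94% at 68 weeks, beside 9.43% and 8.64% over all genes tested.

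**Figure D4:**
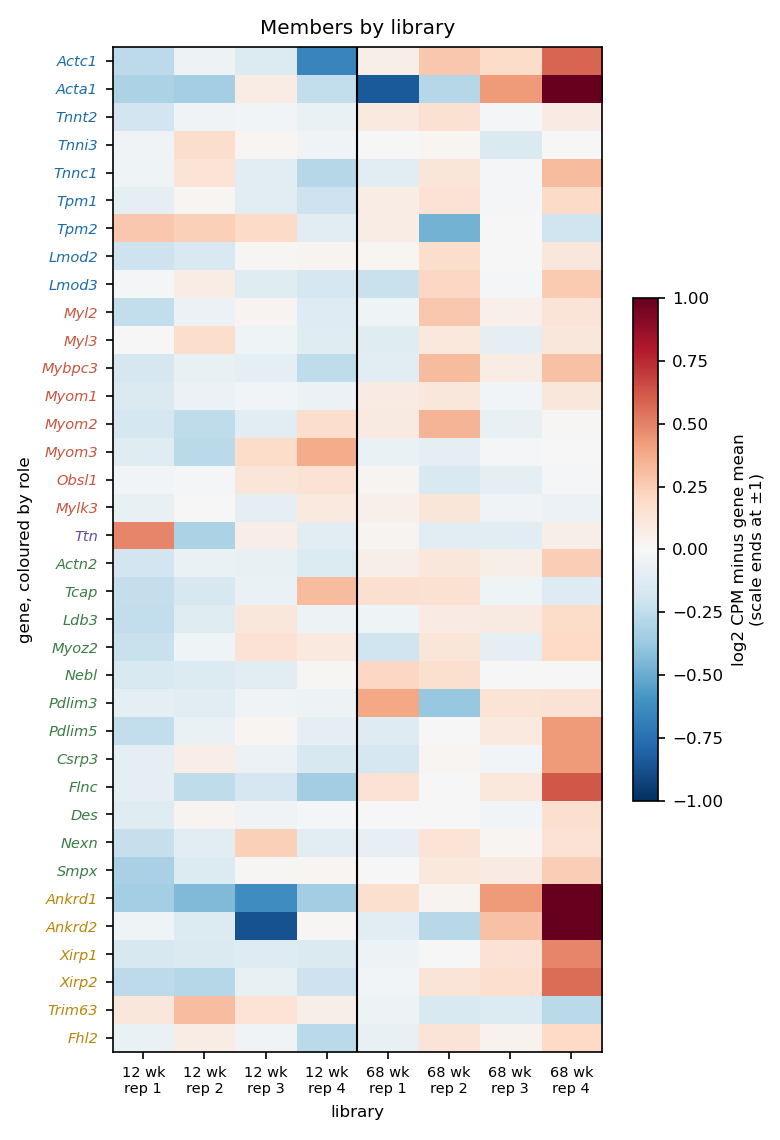
Log2 CPM of each of the 36 members tested minus its mean over the 8 libraries, with rows ordered by role, columns by library and the colour scale ending at 1 in either direction. The column of 68-week replicate 4 is the reddest, led by Acta1, Ankrd1 and Ankrd2, and the column of 12-week replicate 1 is blue for most genes but red for Ttn.

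Other genes of the same structures were read from the same edgeR fit, against the background of 1.61% called higher and 1.22% called lower. Of 25 further sarcomere genes, 23 were tested, 2 were called higher and none lower, with a median log2 fold change of 0.047. Myh7, the slow myosin heavy chain of the fetal and stressed ventricle, was at 263, 198, 278 and 368 CPM at 12 weeks and at 408, 514, 527 and 522 CPM at 68 weeks, and every older library was above every younger one. It rose by 0.83 ± 0.17 on the log2 scale (adjusted p = 0.0341 in edgeR). Tmod4, a cap of thin filament ends, rose by 0.39 ± 0.079 on the log2 scale (adjusted p = 0.0375). Of 25 further Z-disc genes, 23 were tested, 2 were called higher and none lower, and 19 had a log2 fold change above 0, with a median of 0.16. Those called were Sorbs2, an adaptor of the Z-disc and intercalated disc, at 0.57 ± 0.11 (adjusted p = 0.0310), and Dmd, dystrophin, at 0.34 ± 0.063 (adjusted p = 0.0287). Of 15 further muscle stress genes, 14 were tested and Mstn was called higher, with a median of 0.23. Mstn, myostatin, a brake on muscle growth, was at 0.324 to 0.686 CPM at 12 weeks and at 1.01 to 1.95 CPM at 68 weeks, and rose by 1.51 ± 0.31 on the log2 scale (adjusted p = 0.0364). Its level was low in every library.

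The authors' deposited lists of H3K27me3 regions gave 3433 regions for 68 weeks and 1164 for 12 weeks, each called unique to its age, with genes linked to regions by a rule the sources used here do not state. The 68-week list linked regions to 5 of the 37 members (Myl2, Ldb3, Obsl1, Trim63 and Ttn), or 13.5%, beside 3.46% of all genes tested. The 12-week list linked regions to 2 members (Acta1 and Myl3), or 5.41%, beside 1.44%. In the authors' deposited table Obsl1 had 4 regions, from chr1:75463395-75463734 to chr1:75480705-75480917. The region linked to Ttn, chr2:76693545-76693779, had an enrichment of 6.43, against a median of 4.77 over the 68-week list, on a scale the authors do not state. The other member regions of that list had 3.76 to 4.91, with Myl2 at 3.89, Trim63 at 4.397 and Ldb3 at 4.81. The region linked to Trim63 was chr4:134052822-134053120. The build of these region coordinates was not established, so no distance to or overlap with a gene is given, and positions are as the lists hold them. With no value per library in the lists, no replicate error or test of these links can be given. Of the members linked in the 68-week list, Trim63 had a log2 fold change of -0.31 and was called lower. Myl2 was at 0.20, Ldb3 at 0.15, Obsl1 at -0.11 and Ttn at -0.093, and these were called by neither edgeR nor DESeq2. Whether the links bear on these values was not tested.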

How the data were processed

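RNA was measured in 8 heart libraries. The deposited RNA values were raw read counts for each gene, in whole numbers, and the separate file of each library held the same counts as the series table (8 of 8). Per the submitters' processing notes, the genome was mm10 and the tools included STAR 2.5.2b, Trimmomatic 0.36, DESeq2 and featureCounts (Subread 1.5.2), with no roles stated. The deposited H3K27me3 lists gave an enrichment score per region and no value per library, with Trim Galore 0.6.5, Bowtie2 2.4.2, Picard 2.26.2 and MACS3 3.0.0b1 among the tools in the same notes. Handling of strand and of multi-mapped reads: not given in the sources used here.

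Counts were fitted with edgeR 4.0.16 in R 4.3.3 (TMM, filterByExpr, quasi-likelihood test on 6 residual degrees of freedom) over all 15947 genes that passed the filter, with Benjamini-Hochberg adjustment and a threshold of 0.05. CPM used normalized library sizes, and levels between genes were divided by exonic length. A standard error is the log2 fold change divided by the root of its F statistic, an approximation. Shares were tested by exact permutation over 70 splits. Alternatives were DESeq2 1.42.0, other scalings, no filter, a replicate block, airway markers as covariate or split, and each library left out. The scripts were tested on simulated data. No library was a copy of another: within an age, the smallest chi-square per degree of freedom between libraries was 17.4.

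Members and lists were chosen with earlier results of these data known. Given in full are members called and members whose libraries do not overlap between the ages. Others are given by value or range, and Acta1, Ttn, Mybpc3 and Tpm2 were described further after their values were seen. Of the other lists, the genes called are named.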

Additional observations from a re-analysis of the deposited data

Results flagged for a closer look

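Des, the intermediate filament that links Z-discs, stood apart in 1 library. At 68 weeks replicate 4 was at 1990 CPM against 1750 to 1780 CPM in the other three libraries of that age, a gap of 0.847 of the whole range of the group. This was found by a test for a single distant value in a group of 4, which chance passes in about 1 in 20 groups. In the same library 18 of the 36 members tested had their highest value.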

How the results depend on the processing

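The median log2 fold change of the members kept its sign under every alternative run, from 0.096 with library size alone (where the median of all genes was -0.067) to 0.18 without 68-week replicate 1. The count of members called higher was 4 with no filter (Actc1, Flnc, Ankrd1 and Xirp2, beside 1.05% of all genes), 8 with DESeq2 and 0 to 1 when 1 library was left out (Ankrd1, beside 0.858% of all genes without 68-week replicate 2 and 0.734% without 68-week replicate 4). The count called lower was 0 with the replicate block (beside 0.301% of all genes) and 0 with the airway covariate (beside 0.119%). It was 0 whenever 1 library was left out (beside 0.321% to 0.957%), against 1.22% of all genes in the edgeR test as run. With the replicate block, Trim63 had a log2 fold change of -0.31 and an adjusted p of 0.0899, and all genes called higher numbered 112 and lower 48. The numbers did not pair the samples: deviations of same-numbered libraries correlated at -0.243, -0.041, 0.041 and 0.330, and 1 of 8 libraries correlated best with its own number. These log2 fold changes took the other sign. Myl3 was at 0.0034 with RLE scaling, 0.0069 with no filter and 0.0084 with DESeq2. With library size alone Mylk3 was at -0.021 and Myoz2 at -0.043. With the airway covariate Mylk3 was at -0.029, Tcap at -0.096 and Myoz2 at -0.099. In the 4 libraries with the most airway markers Tnnc1 was at -0.016, Lmod3 at -0.0025, Myom3 at 0.055, Myoz2 at -0.058 and Csrp3 at -0.00078. In the 4 with the fewest Tnni3 was at 0.046, Myl3 at 0.16, Myom2 at -0.021, Mylk3 at -0.054, Ttn at 0.10, Tcap at -0.25 and Myoz2 at -0.047. With 1 library left out, Myl3 ran from -0.040 to 0.062, Tcap from -0.0044 to 0.19, Myom3 from -0.20 to 0.021, Myoz2 from -0.053 to 0.078 and Ttn from -0.20 to 0.082. Differences in shares, in percentage points, ran from -1.15 to 0.749 for Acta1, -0.814 to 0.154 for Lmod3 and -0.00354 to 0.000888 for Tnni1. The cause was not tested. The airway markers were high in 3 younger libraries and 1 older one, so each split left groups of 3 and 1, in which the lone library is assumed to vary like the others. The common biological coefficient of variation over all genes was 0.139.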
